A study of Mus musculus with 12 samples.

Results

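Notch signalling genes were examined in RNA-seq of cells labelled as bone endothelial cells (BECs), as a set of 10 genes taken from the 37620 genes of the count table. The set was chosen by name and comprised 4 ligands (Dll1, Dll4, Jag1 and Jag2), the 4 receptors (Notch1, Notch2, Notch3 and Notch4) and 2 target genes (Hey1 and Hes1), each matched to its Ensembl ID. The study asked how BECs differ between the sexes at different ages, and the libraries were made from c57/Bl6 mice, an inbred laboratory strain. There were 4 groups of 3 libraries: females and males of 2 weeks, and females and males of 65 weeks, with no treatment or engineered allele given for any of them. Cells had been purified by endomucin, a surface protein of bone capillaries. Labels name tibia as the source, while the study's isolation methods name both tibiae and femurs. The study took the samples with the best RNA of each set forward to sequencing. Nothing in the labels says whether the 3 libraries of a group came from separate animals, so the p-values measure the spread between these libraries, which may be technical.

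Notch signalling passes between touching cells. A ligand on one cell binds a receptor on its neighbour, the receptor is cut, and its inner part moves to the nucleus, where it joins the DNA-binding protein Rbpj and switches on repressor genes of the Hes and Hey families. In growing vessels Dll4 on tip cells restrains sprouting of the cells behind them and helps to set arterial identity, and in bone endothelial Notch activity is known to promote vessel growth and bone formation.

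Total counts per library ran from 26044743 to 44569600 and were lower at 65 weeks, where the highest total was 34088694, than at 2 weeks, where the lowest was 35012947. A floor of 3 counts corresponded to between 0.0673 and 0.115 CPM (counts scaled to a library total of 1000000), and the lowest member count was 13, for Jag2 in male 65-week replicate 3. The labelled cell type was checked with 22 endothelial marker genes, all of which were detected in every library. Their summed share of the counts was 0.432% to 0.728% in females at 2 weeks, 0.621% to 0.776% in males at 2 weeks, 0.0394% to 0.0490% in females at 65 weeks and 0.0350% to 0.0401% in males at 65 weeks. Cdh5, the adhesion protein that defines endothelial junctions, averaged 590.0 ± 159 CPM in the females of 2 weeks, 737 ± 85.7 CPM in the males of 2 weeks, and 11.8 ± 2.50 and 12.7 ± 1.81 CPM in their 65-week counterparts (SD over 3 libraries), and all 22 markers were lower at 65 weeks in both sexes (edgeR adjusted p under 0.05). A list of 9 mural cell markers was 17.5-fold lower in females and 20.2-fold lower in males, with Tagln and Cnn1 at 0 in at least 1 library, whereas a list of 8 B cell markers was 16.0-fold and 16.6-fold higher. At 65 weeks, in females and males in turn, the osteoblast list was 36.7-fold and 26.7-fold lower, chondrocyte 52.9-fold and 65.7-fold lower, megakaryocyte 6.85-fold and 10.4-fold lower, stromal 5.61-fold and 5.75-fold lower and arterial endothelial 2.91-fold and 3.17-fold lower, with 7 of the 8 arterial genes lower and Bmx higher in both sexes (edgeR adjusted p under 0.05). The neutrophil list was 2.06-fold and 4.18-fold higher, the monocyte and macrophage list 2.31-fold and 2.17-fold higher, markers of T and NK cells were 2.11-fold and 1.98-fold higher, and the erythroid list was at 0.996 and 1.06 times its 2-week share. In bulk RNA, fewer cells of a type and less RNA per cell cannot be told apart, and the part of these cell type markers in the age differences given below was not tested.

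The comparison of ages within each sex showed 9 of the 10 Notch genes at lower levels and 1, Notch2, at a higher level in the 65-week libraries, in which endothelial markers made up less than 0.05% of the counts. All 10 passed the filter on low counts in every fit, and all 10 were called in females and all 10 in males (adjusted p under 0.05 in edgeR, with the Benjamini-Hochberg correction over all genes tested). These counts stand beside a background of 59.7% of 15120 genes called in females (30.2% higher and 29.5% lower) and 55.5% of 14959 genes called in males (27% higher and 28.5% lower). The median log2 fold change of the 10 genes was -2.84 in females and -2.99 in males, while that of all genes tested was 0.01 in each sex. The libraries of the 2 ages did not overlap for any of the 10 genes in either sex, against a background of 41.6% of genes lying apart in the lower and 27.6% in the higher direction in females, and 39.4% and 26% in males.

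**Figure D1:**
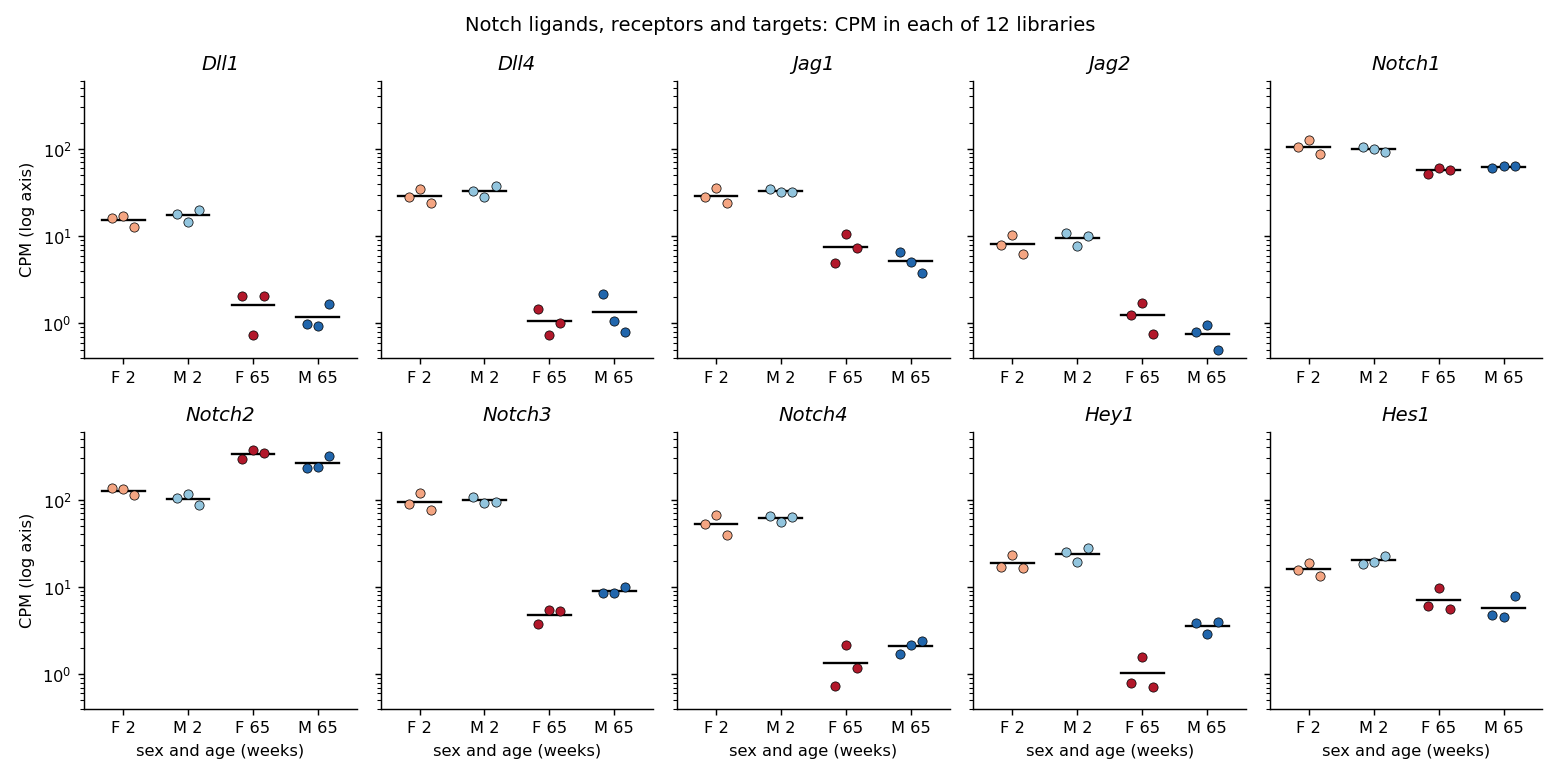
CPM (log axis) of the 10 Notch genes in each of the 12 libraries, in 1 panel per gene, with points for libraries and a line for the mean of 3. In 9 panels both 65-week groups lie below both 2-week groups, and in the Notch2 panel they lie above.

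**Figure D2:**
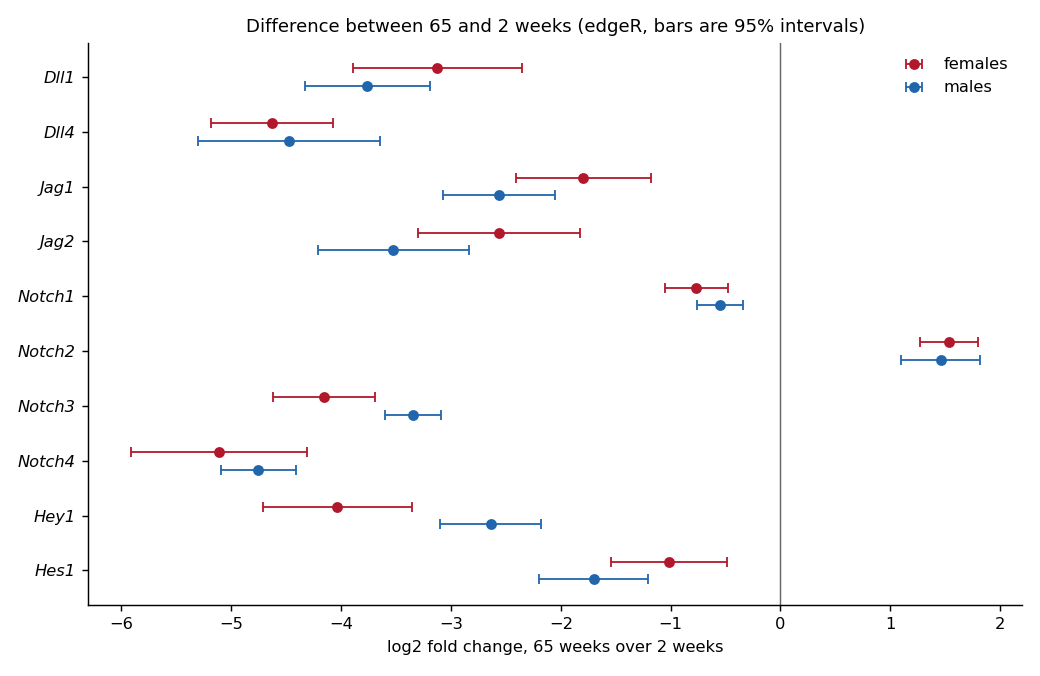
Fitted log2 fold change of each Notch gene, 65 over 2 weeks, in females and males (points) with 95% confidence intervals (bars) from edgeR on 6 libraries per sex. All 20 intervals lie away from 0, and Notch2 is the gene to the right of it.

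The sequences just before the start of Notch2, the gene that rose, and of Dll4 and Notch4, whose folds with age were the greatest among the ligands and the receptors in both sexes, are shown because these genes moved in opposite directions. They are the 250 bases before the annotated start on the plus strand, from RefSeq (GRCm38.p6), at chr3:98013288-98013537 for Notch2, chr2:119325534-119325783 for Dll4 and chr17:34564045-34564294 for Notch4. Capitals mark matches, on either strand, to AGGAAG or CGGAAG, letters that ETS family factors can bind.
Notch2: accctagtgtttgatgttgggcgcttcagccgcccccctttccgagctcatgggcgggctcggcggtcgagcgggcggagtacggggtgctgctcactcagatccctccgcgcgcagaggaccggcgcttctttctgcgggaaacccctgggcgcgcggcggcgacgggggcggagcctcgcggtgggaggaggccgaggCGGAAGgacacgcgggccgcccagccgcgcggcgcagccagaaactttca
Dll4: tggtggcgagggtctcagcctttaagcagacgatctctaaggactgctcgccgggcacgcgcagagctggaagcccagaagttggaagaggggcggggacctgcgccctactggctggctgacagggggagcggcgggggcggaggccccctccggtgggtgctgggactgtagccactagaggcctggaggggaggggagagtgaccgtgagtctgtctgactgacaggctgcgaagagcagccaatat
Notch4: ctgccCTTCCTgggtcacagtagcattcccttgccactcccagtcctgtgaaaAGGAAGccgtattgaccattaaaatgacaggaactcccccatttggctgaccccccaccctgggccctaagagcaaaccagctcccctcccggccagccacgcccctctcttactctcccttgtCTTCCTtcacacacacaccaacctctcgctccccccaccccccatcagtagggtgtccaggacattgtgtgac
RefSeq windows were matched for 8 of the 10 genes, with 9 windows in all. The 2 genes without a window were the targets Hey1 and Hes1, so only ligands and receptors were searched. The Notch2 window held CGGAAG on the plus strand, 50 to 45 bases before the start, and no AGGAAG. The Notch4 window held AGGAAG in 3 places, at 245 to 240 and 73 to 68 bases before the start on the minus strand and at 197 to 192 on the plus strand, and the Dll4 window held neither. AGGAAG was found in 2 of the 9 member windows (those of Dll1 and Notch4) and in 29.5% of all 32851 windows of this length, and CGGAAG in 1 member window and 13.6% of all. TGGGAA, the core that Rbpj binds, was in none of the 9 and in 21.6% of all windows, and TGACTCA (AP-1) and TATATAA were in none of the 9 and in 4.46% and 3.04% of all. These letters were picked with the sequences in view, both strands were read, and no pair of them overlapped in a member window.

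Among the ligands, Dll4 fell most. Dll4 (ENSMUSG00000027314, GRCm39 chromosome 2, 119156170 to 119166443, plus strand) is the delta-like ligand of tip cells and arteries. It was measured at 27.8, 34.8 and 24.1 CPM in females at 2 weeks, 33.2, 28.2 and 38.0 CPM in males at 2 weeks, 1.45, 0.733 and 1.02 CPM in females at 65 weeks and 2.20, 1.07 and 0.806 CPM in males at 65 weeks. Every 65-week library was below every 2-week library, and within an age the sexes overlapped. Its mean was 27.1-fold lower at 65 weeks in females and 24.4-fold lower in males. The log2 fold change was -4.63 ± 0.239 (SE, adjusted p = 3.62e-06 by edgeR) in females and -4.47 ± 0.355 (SE, adjusted p = 3.41e-05 by edgeR) in males, and the 65-week values rested on 21 to 60 counts per library.

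Dll1 (ENSMUSG00000014773, chromosome 17, 15587276 to 15597134, minus strand) is the other delta-like ligand of the set, best known from development and haematopoietic niches. Its CPM was 16.0, 17.0 and 12.9 in females at 2 weeks, 17.9, 14.6 and 19.8 in males at 2 weeks, 2.07, 0.733 and 2.05 in females at 65 weeks and 0.988, 0.926 and 1.65 in males at 65 weeks. Female 65-week replicate 2 was the lowest of the 12 libraries. The log2 fold change with age was -3.12 ± 0.334 (SE, adjusted p = 0.000108 by edgeR) in females and -3.76 ± 0.245 (SE, adjusted p = 1.32e-05 by edgeR) in males. Dll1 overlaps Fam120b on the opposite strand between 15594911 and 15597134, and since the use of strand in counting is not stated, reads of that stretch could have been assigned to either gene. Dll4, Notch1 and Notch4 overlap noncoding genes or pseudogenes on the opposite strand, which held at most 33 counts in any library.

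Jag1 (ENSMUSG00000027276, chromosome 2, 136923373 to 136958693, minus strand) and Jag2 (ENSMUSG00000002799, chromosome 12, 112871421 to 112893437, minus strand) encode the jagged ligands, of which Jag1 is known to be made by endothelial and stromal cells. Jag1 was at 27.9, 35.8 and 24.0 CPM in females at 2 weeks and 35.2, 32.05 and 31.9 CPM in males at 2 weeks, and at 4.89, 10.6 and 7.37 CPM in females at 65 weeks and 6.51, 5.07 and 3.80 CPM in males at 65 weeks. It was the ligand that fell least, by a log2 fold change of -1.80 ± 0.267 (SE, adjusted p = 0.000648 by edgeR) in females and -2.56 ± 0.218 (SE, adjusted p = 4.93e-05 by edgeR) in males. Jag2 was at 8.01, 10.2 and 6.27 CPM in females at 2 weeks and 10.9, 7.80 and 9.94 CPM in males at 2 weeks, against 1.24, 1.73 and 0.751 CPM in females at 65 weeks and 0.805, 0.963 and 0.499 CPM in males at 65 weeks. Its log2 fold change was -2.56 ± 0.320 (SE, adjusted p = 0.000252 by edgeR) in females and -3.53 ± 0.296 (SE, adjusted p = 4.53e-05 by edgeR) in males. For both genes the 2-week and 65-week libraries were separate, and the sexes overlapped within each age.

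Levels of different genes were compared per kb of exon, with the exons of all annotated transcripts of a gene joined. The joined length can exceed that of the transcripts made, so shares between genes are approximate on this scale. On it, the 4 ligands summed to 16.5 ± 3.05 CPM per kb in females at 2 weeks and 18.8 ± 1.99 in males at 2 weeks, and to 2.05 ± 0.287 in females at 65 weeks and 1.55 ± 0.370 in males at 65 weeks (SD, n = 3 each). Dll4 made up 44.4% ± 0.578 of that sum in females at 2 weeks and 44.5% ± 2.36 in males at 2 weeks, and 13.8% ± 6.40 and 21.2% ± 6.32 at 65 weeks. Jag1 made up 29.7% ± 0.743 and 29.7% ± 3.14 at 2 weeks, and 61.0% ± 14.6 and 55.3% ± 3.85 at 65 weeks. Thus on this scale Dll4 led the ligands in all 6 libraries of 2 weeks and Jag1 in all 6 of 65 weeks. The lead of Dll4 at 2 weeks depended on the division by exon length. In CPM, Jag1 was above Dll4 in replicates 1 and 2 of both sexes at 2 weeks (32.05 against 28.2 in male replicate 2). It was below Dll4 in replicate 3 of both (31.9 against 38.0 in males). At 65 weeks Jag1 was above Dll4 in every library in CPM as well. Dll1 made up 18.9% ± 1.36 and 18.6% ± 0.909 at 2 weeks and 16.7% ± 9.16 and 16.6% ± 8.88 at 65 weeks, where single libraries ran from 6.29% to 26.7%. Jag2 made up 6.94% ± 0.414 and 7.13% ± 0.652 at 2 weeks and 8.49% ± 2.82 and 6.94% ± 2.12 at 65 weeks.

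The receptors moved in different directions. Notch2 (ENSMUSG00000027878, chromosome 3, 97920800 to 98057677, plus strand), a receptor that is also known for its role in marginal zone B cells and myeloid cells, was at 135, 131 and 112 CPM in females at 2 weeks and 105, 117 and 86.7 CPM in males at 2 weeks. At 65 weeks it was at 288, 365 and 341 CPM in females and 231, 235 and 319 CPM in males, so that the lowest 65-week library was above the highest 2-week library. Its mean was 2.64-fold higher in females and 2.55-fold higher in males, with a log2 fold change of 1.54 ± 0.115 (SE, adjusted p = 1.78e-05 by edgeR) and 1.46 ± 0.154 (SE, adjusted p = 0.000152 by edgeR). Male 65-week replicate 3 held the highest male value.

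Notch1 (ENSMUSG00000026923, chromosome 2, 26347915 to 26406675, minus strand), the receptor best known in endothelial sprouting and T cell development, fell least of all the members. It was at 105, 126 and 88.0 CPM in females at 2 weeks and 104, 101 and 92.6 CPM in males at 2 weeks, and at 51.9, 60.4 and 57.8 CPM in females at 65 weeks and 60.8, 63.4 and 63.6 CPM in males at 65 weeks. Every 65-week library was below every 2-week library of the same sex. The log2 fold change was -0.76 ± 0.123 (SE, adjusted p = 0.00101 by edgeR) in females and -0.55 ± 0.0903 (SE, adjusted p = 0.00152 by edgeR) in males.

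Notch3 (ENSMUSG00000038146, chromosome 17, 32339794 to 32385893, minus strand) is the receptor characteristic of pericytes and smooth muscle, the mural cells that wrap vessels. Its CPM was 88.3, 120.2 and 76.3 in females at 2 weeks, 107, 92.4 and 94.9 in males at 2 weeks, 3.79, 5.43 and 5.22 in females at 65 weeks and 8.42, 8.56 and 9.87 in males at 65 weeks. All 3 males of 65 weeks were above all 3 females of that age, and both were far below 2 weeks. The log2 fold change with age was -4.16 ± 0.203 (SE, adjusted p = 3.13e-06 by edgeR) in females and -3.34 ± 0.110 (SE, adjusted p = 1.03e-06 by edgeR) in males. The summed share of the 9 mural markers, a list without Notch3, was 0.0640% to 0.114% of counts at 2 weeks and 0.00401% to 0.00616% at 65 weeks, and their part in the Notch3 difference was not tested.

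Notch4 (ENSMUSG00000015468, chromosome 17, 34783220 to 34807477, plus strand), the receptor largely restricted to endothelium, had the widest difference with age of the 10 genes in both sexes. It was at 53.0, 66.1 and 38.97 CPM in females at 2 weeks, 64.5, 55.3 and 63.8 CPM in males at 2 weeks, 0.723, 2.17 and 1.16 CPM in females at 65 weeks and 1.72, 2.15 and 2.42 CPM in males at 65 weeks. The highest 65-week library, at 2.42 CPM, was far below the lowest 2-week library, and the sexes overlapped at each age. The mean was 38.99-fold lower in females and 29.2-fold lower in males, with a log2 fold change of -5.11 ± 0.348 (SE, adjusted p = 1.18e-05 by edgeR) and -4.75 ± 0.148 (SE, adjusted p = 9.63e-07 by edgeR).

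Summed per kb of exon, the 4 receptors were at 35.1 ± 6.15 CPM per kb in females at 2 weeks, 33.9 ± 1.95 in males at 2 weeks, 34.1 ± 3.96 in females at 65 weeks and 28.9 ± 4.58 in males at 65 weeks (SD, n = 3 each). In females the difference between the ages was smaller than either SD, and in males it was larger than either. It was not tested. The makeup of the sum differed. Notch2 made up 32.2% ± 3.47 in females and 26.9% ± 3.32 in males at 2 weeks, and 86.3% ± 0.200 and 80.3% ± 2.29 at 65 weeks. Notch3 went from 29.8% ± 2.27 and 32.1% ± 1.71 to 1.56% ± 0.128 and 3.46% ± 0.222, and Notch4 from 16.8% ± 1.47 and 20.4% ± 2.08 to 0.434% ± 0.197 and 0.821% ± 0.0850. Notch1 held 21.2% ± 0.245 and 20.5% ± 0.289 at 2 weeks and 11.7% ± 0.483 and 15.4% ± 2.05 at 65 weeks.

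**Figure D3:**
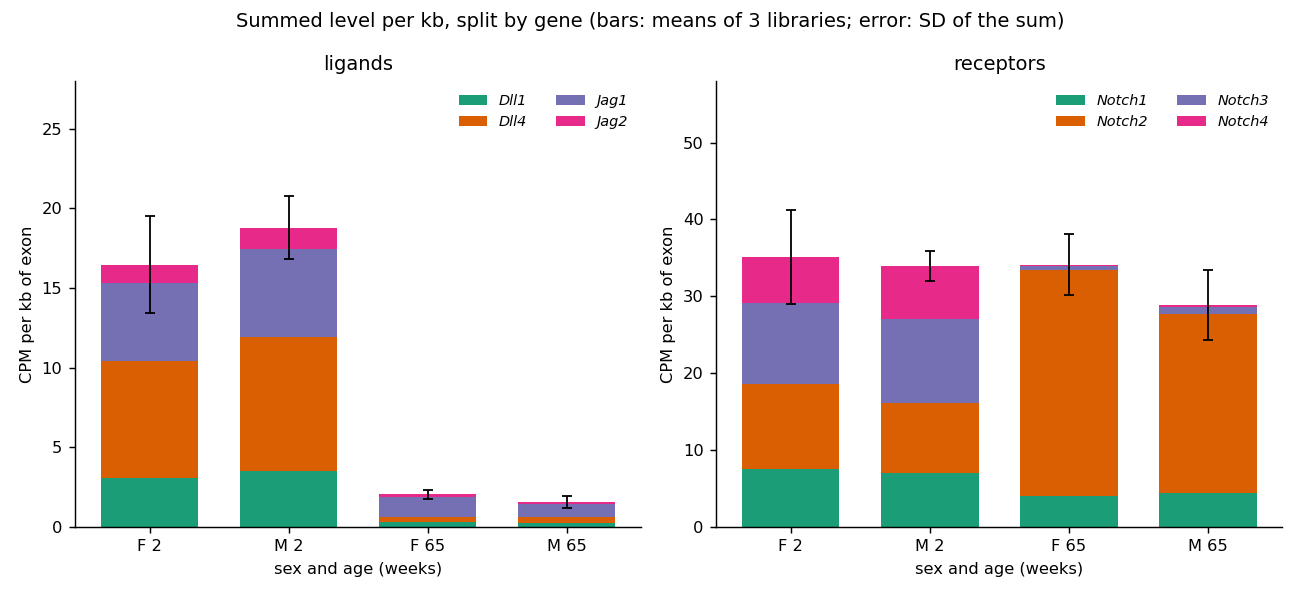
Summed level of the 4 ligands (left) and 4 receptors (right) in CPM per kb of exon for the 4 groups, each bar split by gene, with bars for means of 3 libraries and error bars for the SD of the sum. The ligand bars are lower at 65 weeks (2.05 and 1.55 against 16.5 and 18.8), while the receptor bars lie between 28.9 and 35.1 and are mostly Notch2 at 65 weeks.

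The target genes both fell, Hey1 by more than Hes1. Hey1 (ENSMUSG00000040289, chromosome 3, 8726956 to 8732385, minus strand) encodes a repressor that Notch switches on in arterial endothelium and in bone. It was at 16.9, 23.0 and 16.4 CPM in females at 2 weeks, 24.9, 19.2 and 27.5 CPM in males at 2 weeks, 0.792, 1.55 and 0.717 CPM in females at 65 weeks and 3.81, 2.85 and 3.95 CPM in males at 65 weeks. The 3 males of 65 weeks were all above the 3 females of 65 weeks and below every 2-week library. Its mean was 18.4-fold lower with age in females and 6.76-fold lower in males, with a log2 fold change of -4.04 ± 0.294 (SE, adjusted p = 1.55e-05 by edgeR) and -2.64 ± 0.197 (SE, adjusted p = 2.46e-05 by edgeR).

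Hes1 (ENSMUSG00000022528, chromosome 16, 29882134 to 29886643, plus strand), a repressor that many cell types make in response to Notch, was at 15.7, 18.5 and 13.4 CPM in females at 2 weeks and 18.3, 19.4 and 22.6 CPM in males at 2 weeks. At 65 weeks it was at 5.96, 9.77 and 5.63 CPM in females and 4.76, 4.56 and 7.91 CPM in males. In each sex 1 library of 65 weeks stood above the other 2 and was still below the 2-week libraries. The log2 fold change was -1.01 ± 0.229 (SE, adjusted p = 0.00568 by edgeR) in females and -1.70 ± 0.213 (SE, adjusted p = 0.000375 by edgeR) in males.

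The sexes were then compared within each age, the question for which the study sequenced these libraries. At 2 weeks none of the 10 Notch genes was called (edgeR adjusted p under 0.05, background 0.0332% of 15081 genes), and 2 of them, Hes1 and Notch2, had an unadjusted p under 0.05, against 17.8% of all genes. No gene of the set had separate male and female libraries at this age, as 21.7% of genes did. Hes1 was higher in males by 0.33 ± 0.125 in log2 units (SE, adjusted p = 0.257 by edgeR) and Notch2 was at a log2 fold change of -0.30 ± 0.127 (SE, adjusted p = 0.274 by edgeR). The 95% intervals of all 10 genes lay between -0.60 and 0.69 on the log2 scale.

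At 65 weeks none of the 10 was called either (background 0.042% of 14287 genes), and 3 of them, Hey1, Notch3 and Notch2, had an unadjusted p under 0.05, against 10.4% of all genes. The libraries were wider apart at this age, with intervals between -1.88 and 2.66 on the log2 scale. In Hey1, Notch3 and Notch1 all 3 males were above all 3 females, a pattern that 9.32% of genes showed in this direction. Hey1 was 3.46-fold higher in males, with a log2 fold change of 1.77 ± 0.389 (SE, 95% interval 0.87 to 2.66, adjusted p = 0.173 by edgeR). Notch3 had a log2 fold change of 0.88 ± 0.203 (SE, 95% interval 0.41 to 1.34, adjusted p = 0.191 by edgeR), and Notch1 of 0.13 ± 0.0992 (SE, adjusted p = 0.738 by edgeR). Both Hey1 and Notch3 were called with DESeq2 (DESeq2 adjusted p = 0.00419 and 0.0182) and with all 12 libraries in 1 edgeR model (edgeR adjusted p = 0.0210 and 0.0371). Each of these fits also called many more genes over all than the main fit, by the counts given in the closing section. Over all 15 alternatives tried the adjusted p ran from 0.00419 to 0.656 for Hey1 and from 0.0182 to 0.655 for Notch3, with 2 of 15 under the threshold for each and the males higher in all. Of the 12 marker lists, 2 also had separate male and female libraries at 65 weeks. The osteoblast list held 0.0167% to 0.0266% of the counts in females and 0.0268% to 0.0354% in males, and the neutrophil list 1.20% to 1.58% in females and 1.76% to 2.61% in males. The mural list overlapped, at 0.00401% to 0.00542% in females and 0.00418% to 0.00616% in males. The part of these markers in the sex differences was not tested.

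Whether the sex difference itself differed between the ages was tested by an interaction term on all 12 libraries. None of the 10 genes passed (background 0.00635% of 15747 genes), and Hey1 and Notch3 had an unadjusted p under 0.05, against 11.9% of all genes. The term, which is also the age log2 fold change of males minus that of females, was 1.40 for Hey1 (SE 0.369, edgeR adjusted p = 0.168) and 0.82 for Notch3 (SE 0.239, edgeR adjusted p = 0.214). Both genes had the smaller fitted fall with age in males. For Hey1 the adjusted p ran from 0.0135 with DESeq2 to 0.384 over 20 alternatives, 1 of which called it. DESeq2 also called many more genes over all for this term than the main fit.

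**Figure D4:**
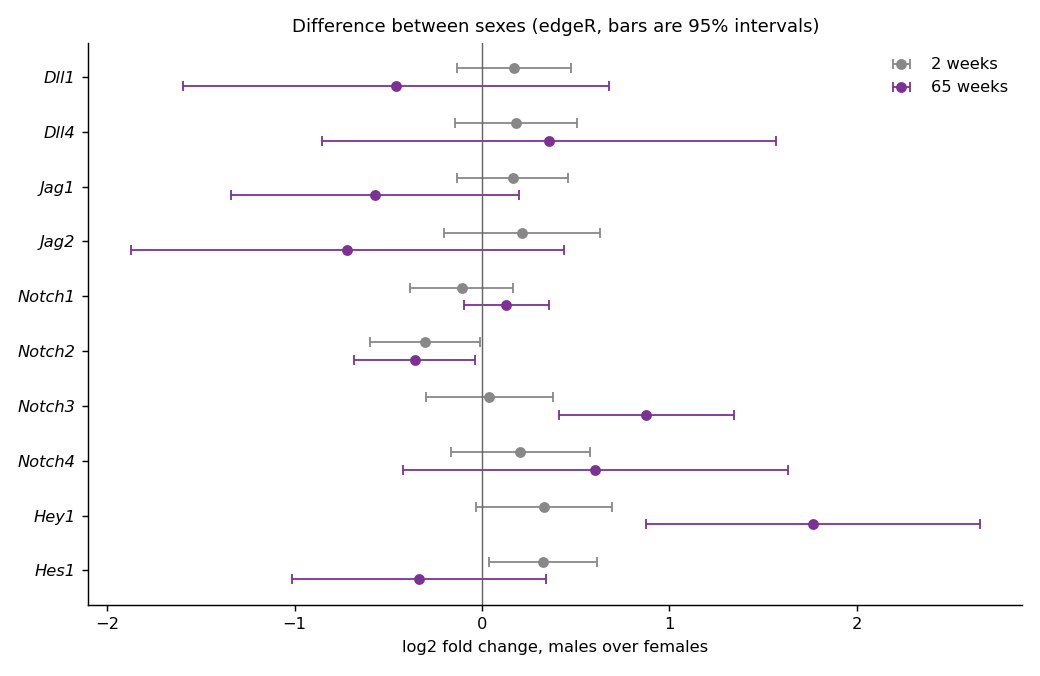
Fitted log2 fold change of each Notch gene, males over females, at 2 and at 65 weeks (points) with 95% confidence intervals (bars) from edgeR on 6 libraries per age. The intervals of Hey1 and Notch3 at 65 weeks and Hes1 at 2 weeks lie to the right of 0, those of Notch2 to the left at both ages, and none of the 20 differences passed the adjusted threshold.

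The order of the 4 groups was read from these levels for every gene. In 8 of the 10 genes males of 2 weeks had the highest mean and females of 2 weeks the next, the exceptions being Notch1, with females of 2 weeks first, and Notch2, with females of 65 weeks first. Neighbours in this order overlapped in their libraries wherever they were the 2 sexes of one age, other than Notch1, Notch3 and Hey1 at 65 weeks, and never overlapped where they were of different ages.

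The same 10 genes were also expressed relative to the summed counts of the 22 endothelial markers, to show how their levels stood against those markers. In bulk RNA this ratio does not show which cells made the Notch transcripts. On this scale Notch4 was lower at 65 weeks in both sexes, at 0.335 times its 2-week value in females and 0.655 times in males, with no overlap between the ages. Dll4 was at 0.504 times in females, without overlap, and 0.801 times in males, with overlap. Notch2 was 34.5-fold and 47.9-fold higher, Notch1 7.12-fold and 12.05-fold higher, Hes1 5.84-fold and 5.37-fold higher, and Jag1 3.41-fold and 3.00-fold higher, all without overlap. Jag2 was at 2.00 times in females and, with overlap, 1.56 times in males, and Dll1 overlapped in both, at 1.45 and 1.29 times. Notch3 and Hey1 differed in direction between the sexes, with Notch3 at 0.679 times in females and 1.74 times in males, and Hey1 at 0.700 times in females, with overlap, and 2.84 times in males. In all, 6 of the 10 genes were higher relative to the endothelial markers in both sexes, 2 were lower in both and 2 were split, whereas relative to Cdh5 alone all 10 had a higher mean in both, with overlap for Notch4 in females (1.25 times) and no other overlap. These ratios were not tested and the 2 scales answer different questions. CPM sets a gene against the counts of the whole library, and the ratio sets it against the counts of the endothelial markers.

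**Figure D5:**
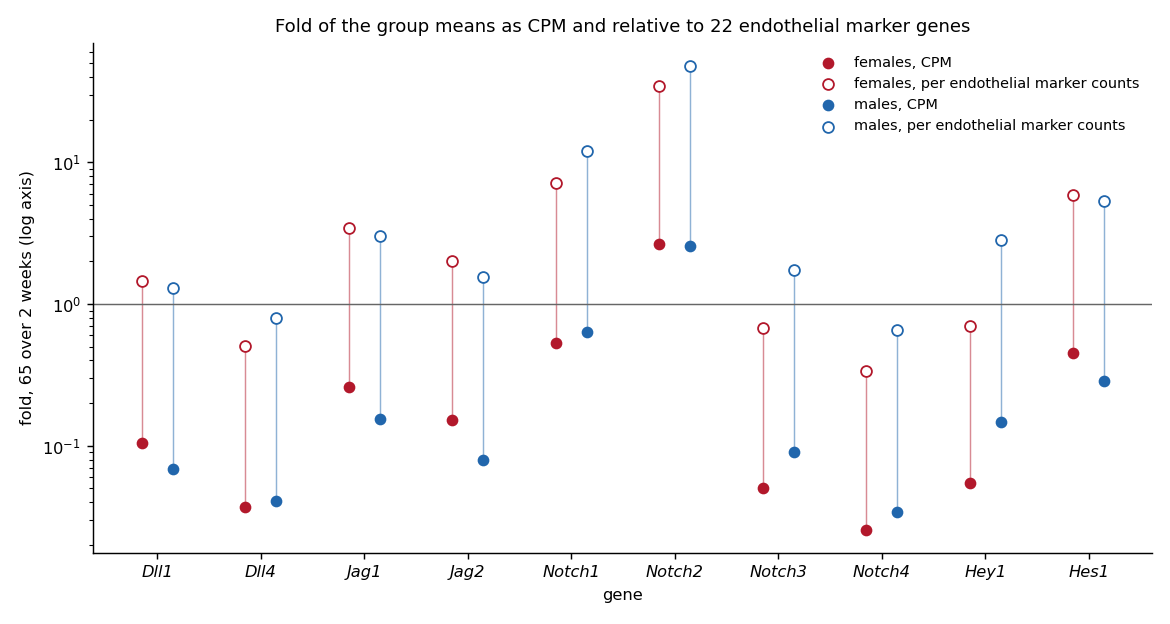
Fold of the group means, 65 over 2 weeks (log axis), for the 10 Notch genes in females and males, as CPM (filled points) and relative to the counts of 22 endothelial marker genes (open points). Relative to the markers, Dll4 and Notch4 stay below 1 in both sexes, Notch3 and Hey1 lie on both sides of it, and the other 6 genes lie above it.

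Other genes of the pathway were followed in a list of 51. Of these, 44 were tested in females and 43 in males. With age 29 were called in females (16 higher and 13 lower) and 21 in males (8 higher and 13 lower), against the background of 59.7% of all genes in females and 55.5% in males. The list had a median log2 fold change of 0.05 in females and -0.02 in males, and of 0.01 for all genes in each sex. The counts by role that follow are small and stand beside 30.2% of all genes called higher and 29.5% lower in females, and 27% and 28.5% in males. Of 8 other targets, 5 were tested in females and 4 in males, and 3 fell in each sex. Of 10 genes for receptor cleavage, 5 rose and 1 fell in females, and 2 rose and 2 fell in males. Of 9 genes of the nuclear complex, 4 rose and 1 fell in females, and 3 rose and 1 fell in males. Of 10 inhibitors and turnover genes, 5 rose and 3 fell in females, and 3 rose and 2 fell in males. Of 5 fringe and glycosyltransferase genes, 1 rose and 3 fell in females, and 2 fell in males. The DNA-binding partner Rbpj was measured at 69.9 ± 6.55 and 71.0 ± 2.79 CPM in females and 74.6 ± 2.35 and 66.2 ± 4.53 CPM in males at 2 and 65 weeks (edgeR adjusted p = 0.127 and 0.570). It was chosen after its values were seen.

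The share of all genes called in the same direction in both sexes was not computed, so the next count has no background. Among the called genes of the list whose average log2 CPM was 1 or more, 17 were called in the same direction in both sexes, 8 higher and 9 lower. The widest fall was that of Heyl, a further Hey family target known from mural cells, which was at 42.2, 51.5 and 36.9 CPM in females at 2 weeks, 50.2, 46.6 and 51.7 CPM in males at 2 weeks, 3.13, 5.54 and 4.88 CPM in females at 65 weeks and 1.54, 2.11 and 1.96 CPM in males at 65 weeks. Its log2 fold change was -3.12 ± 0.213 (SE, adjusted p = 1.19e-05 by edgeR) in females and -4.61 ± 0.147 (SE, adjusted p = 1.03e-06 by edgeR) in males. At 65 weeks all 3 males were below all 3 females in Heyl, the opposite order to Hey1, with a log2 fold change of -1.29 ± 0.305 (SE, adjusted p = 0.199 by edgeR). Its interaction term was -1.48 ± 0.277 (SE, adjusted p = 0.119 by edgeR). Neither passed the threshold. DESeq2 called both (adjusted p = 0.0182 and 0.000518), the edgeR adjusted p of the 65-week difference was 0.0229 with all 12 libraries in 1 model, and that of the interaction was 0.0248 without male 65-week replicate 3. Over the alternatives the adjusted p ran up to 0.658 for the 65-week difference and 0.329 for the interaction. The fits that called Heyl also called many more genes over all than the main fits.

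Nrarp, a feedback inhibitor that Notch itself switches on, was at 28.7, 35.2 and 24.4 CPM in females at 2 weeks, 34.2, 30.6 and 43.8 CPM in males at 2 weeks, 4.92, 5.63 and 5.12 CPM in females at 65 weeks and 5.78, 4.63 and 6.14 CPM in males at 65 weeks. The ages were well apart and the sexes overlapped. Its log2 fold change was -2.35 ± 0.147 (SE, adjusted p = 8.03e-06 by edgeR) in females and -2.60 ± 0.179 (SE, adjusted p = 1.72e-05 by edgeR) in males. Neurl1a, a ubiquitin ligase that acts on ligand endocytosis, fell by 2.94 in females and 3.51 in males on the log2 scale (edgeR adjusted p = 0.00013 and 0.000603), the latter by 4.33 without male 65-week replicate 2. Numbl, an inhibitor of the Numb family, fell by 1.45 and 1.61, the co-activator Maml3 fell by 0.90 and 1.23, and Mfng, a fringe enzyme that adds sugar to receptors, fell by 0.72 and 1.33 (edgeR adjusted p from 0.000185 to 0.00382).

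Dtx1, a ubiquitin ligase of the Deltex family known from lymphocytes, rose most. It was at 0.899, 1.14 and 0.731 CPM in females at 2 weeks and 0.628, 0.718 and 0.991 CPM in males at 2 weeks, and at 14.1, 10.2 and 9.93 CPM in females at 65 weeks and 6.19, 4.07 and 20.7 CPM in males at 65 weeks. The last of these, male 65-week replicate 3, was above all other libraries. The list of 8 B cell markers summed to 1.33%, 1.24% and 1.33% of the counts in the males of 65 weeks and to between 1.04% and 2.30% in the females of that age. The log2 fold change of Dtx1 was 3.76 ± 0.237 (SE, adjusted p = 8.43e-06 by edgeR) in females and 3.82 ± 0.620 (SE, adjusted p = 0.00142 by edgeR) in males, and 2.85 ± 0.315 (SE, adjusted p = 0.000166 by edgeR) in males without that library. The part of the B cell markers in this difference was not tested. The other genes named by rank rose by less: the co-activator Ep300 by 0.82 and 1.18 on the log2 scale in females and males, Aph1c, a subunit of the gamma-secretase that cuts the receptors, by 0.96 and 0.85, Fbxw7, which marks the cut receptor for destruction, by 0.84 and 0.89, Dtx3l by 1.02 and 0.69, and Spen, a co-repressor that joins Rbpj, by 0.51 and 1.10 (edgeR adjusted p from 4.77e-05 to 0.00718). Between the sexes none of the genes tested was called by the main edgeR fits at 2 weeks (44 tested), at 65 weeks (42 tested) or in the interaction (45 tested). An unadjusted p under 0.05 was found for 8 of them at 2 weeks, 3 at 65 weeks and 8 in the interaction, against 17.8%, 10.4% and 11.9% of all genes. Besides Heyl, 3 of 15 alternatives called Dtx3l at 65 weeks, with a log2 fold change of -0.57 to -0.46 over all 15. At that age 1 alternative called Dlk1 and 1 called Dtx1, and 1 called Dtx3 in the interaction. At 2 weeks DESeq2 called Ep300 and Spen. The fits that made these calls also called more genes over all than the main fits.

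Finally, the genes whose profile over the 12 libraries was most like that of each member were found by the root mean square difference of log2 (CPM + 0.5), centred per gene, among 12529 protein-coding genes. Nearest to Dll4 were the semaphorins Sema3f (0.199) and Sema6a (0.219), and nearest to Notch4 the tetraspanin Tspan9 (0.159) and Tril (0.203). Notch3 was nearest to Egfr, a growth factor receptor (0.145), and Cdh11, a cadherin (0.147), while Notch2 was nearest to Rassf5 (0.121) and Camk1d (0.123), and Notch1 to Nisch (0.104) and Snrk (0.113). Dll1 was nearest to Tnfsf11, which encodes the osteoclast factor RANKL (0.210), and F11r (0.223). Jag1 was nearest to Zfp13 (0.212) and Plekhg1 (0.213), Jag2 to Arhgap28 (0.149) and Plekhg1 (0.172), Hey1 to Hoxd8 (0.213) and Eva1a (0.260), and Hes1 to Apbb1 (0.174) and Ppp2r3a (0.185). Within the set the closest pairs were Jag1 with Jag2 (0.323), Notch3 with Hey1 (0.438) and Notch1 with Hes1 (0.463), all at wider distances than each gene's nearest neighbours.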

How the data were processed

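Paired reads of 100 nt were sequenced from 12 libraries of cells labelled as BECs, 3 in each of 4 groups assigned by the sex and age in the labels. The deposited table holds read counts per gene, which the authors did not normalise. The authors describe aligning reads to GRCm39 with STAR and counting with featureCounts, whereas the submitters' processing notes name mm9, TopHat2 and HTSeq, so the build behind the counts was not settled. The use of strand and of reads that map to several places is not given in the sources used here. Labels name tibia and polyadenylated RNA, while the isolation methods name tibiae and femurs and the kit was for total RNA. Of the 37620 gene IDs 31052 were found in GENCODE M39, with 99.3% of the counts, and names, coordinates and exon lengths were taken from it by ID. Total counts of 26044743 to 44569600 per library set the precision. The floor of 3 counts stands for counting error alone, as these reads carry no molecular identifiers and may include copies of 1 molecule.

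CPM was computed from library totals. Tests used edgeR 4.0.16 in R 4.3.3 (TMM scaling, its quasi-likelihood F test, and filterByExpr at a minimum count of 10), with p-values adjusted by Benjamini-Hochberg over all genes tested and a threshold of 0.05, on the 6 libraries of each comparison, and on all 12 for the interaction. The F statistic and the fold change gave each standard error. The edgeR script was tested on simulated data. The members and gene lists were chosen with earlier results of these data known. Genes named were all 10 members, the 6 other pathway genes with the largest mean change in each direction among those called in both sexes (average log2 CPM 1 or more), any called between sexes, and the 2 protein-coding genes nearest to each member with a mean of at least 1 CPM. No 2 replicates agreed within sampling noise. Alternatives were DESeq2 1.42.0, other scalings and filters, thinning to the smallest library, a replicate block, all 12 libraries in 1 model, leaving out each library, and other denominators for the ratio to endothelial markers, of which the mural markers were chosen after seeing the data. Promoter sequence came from RefSeq (GRCm38.p6), whose coordinates were not mixed with those of GRCm39.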

Additional observations from a re-analysis of the deposited data

How the results depend on the processing

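The calls with age did not move: all 10 Notch genes were called in each of 15 alternatives in either sex, and the log2 fold changes kept their direction and call in 150 of 150 cases per sex. With library totals alone the median of all genes shifted to -0.13 in females and -0.11 in males, and the share of called genes that were higher was 40.2% in females and 40.4% in males, against 50.6% and 48.7% with TMM. Between the sexes at 2 weeks, DESeq2 called 412 genes, all 12 libraries in 1 model called 8, and leaving out 1 library gave 5 to 11, against 5. At 65 weeks, against 6, DESeq2 called 358, library totals alone 10, no filter 105, all 12 libraries in 1 model 254, and leaving out 1 library gave 5 to 830, the count being 15 without replicate 2 of the 65-week males and 830 without replicate 3. The interaction, with 1 gene called, had 362 with DESeq2, 7 with no filter, 0 when thinned, and 0 to 750 when 1 library was left out, the latter without male 65-week replicate 3. Of the 10 Notch genes, DESeq2 and all 12 libraries in 1 model each called 2 at 65 weeks, and DESeq2 called 1 in the interaction, while leaving out any 1 library called 0 in the sex comparisons and the interaction. Of the other pathway genes, DESeq2 called 2 at 2 weeks, 2 at 65 weeks and 1 in the interaction, all 12 libraries in 1 model called 3 at 65 weeks, and leaving out 1 library gave 0 to 2 at 65 weeks and 0 to 2 in the interaction. The cause of these shifts was not tested. Relative to Cdh5 alone 10 of the 10 genes had a higher mean in both sexes (with overlap for Notch4 in females), against 6 with the 22 markers and 6 relative to the mural markers.

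Small log2 differences that were not called changed sign when 1 library was left out, over these ranges: Notch1 and Notch3 between sexes at 2 weeks, -0.22 to 0.0082 and -0.0913 to 0.22, Dll4 between sexes at 65 weeks, -0.20 to 0.64, and the interaction of Dll4, -0.41 to 0.47, and Notch2, -0.19 to 0.027. Libraries with the same replicate number did not deviate together (correlations of -0.355 to 0.140, with 1 of 18 over 0.1). The main fits did not pair them, and with 3 libraries per group this check cannot exclude a pairing by number. A replicate block gave 8269 and 7593 genes with age in females and males, 5 and 7 between the sexes at 2 and 65 weeks and 0 in the interaction, with 10 Notch genes in each age comparison and 0 in the others. Depth limits the 65-week members most, since Dll1, Dll4, Jag2, Notch4 and Hey1 held at most 104 counts in each of these libraries.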
